A study of Mus musculus with 5 samples.

Results

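The let-7 and miR-98 family was described here as 9 mature mouse miRNAs, taken by name: mmu-let-7a, mmu-let-7b, mmu-let-7c, mmu-let-7d, mmu-let-7e, mmu-let-7f, mmu-let-7g, mmu-let-7i and mmu-miR-98. The species prefix is left off below. They were 9 of the 593 miRNA names with a count in any of 5 small RNA libraries. All libraries came from testis of C57BL/6 mice and were read after magnetic sorting with an antibody to Thy1.2, a surface antigen found on spermatogonial stem cells, from which sperm production is renewed. The Thy1+ group was the enriched fraction and the Thy1- group the depleted, somatic-enriched fraction, each with 2 libraries of freshly isolated cells. The culture group was 1 library of germ cells grown from the enriched cells for about 10 passages. The cell type label of the Thy1- libraries repeats the stem cell name, and their titles, which call them enriched for somatic cells, were followed. Neither the age of the mice nor whether replicates came from separate animals is stated, so the p-values below measure only the spread between these libraries, which may be technical.

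The first member of the family, found as a timing gene in the worm, gave let-7 its name. Its mammalian copies share a seed, the stretch near the 5′ end that pairs with target mRNAs, and they repress growth and early-embryo genes such as Hmga2, Myc, Ras genes and Lin28 itself. The protein Lin28 binds let-7 precursors and blocks their maturation, so mature let-7 is typically scarce in pluripotent cells and abundant in differentiated ones. In the mouse testis Lin28a is known as a protein of undifferentiated spermatogonia.

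The mature sequences are shown because the members are told apart by very few bases. They are from the RefSeq table of GRCm38.p6, 5′ to 3′, with the seed, bases 2 to 8, in capitals.
let-7a: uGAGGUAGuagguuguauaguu
let-7b: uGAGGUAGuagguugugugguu
let-7c: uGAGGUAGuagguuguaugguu
let-7d: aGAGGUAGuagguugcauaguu
let-7e: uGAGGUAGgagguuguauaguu
let-7f: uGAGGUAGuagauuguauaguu
let-7g: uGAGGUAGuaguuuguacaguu
let-7i: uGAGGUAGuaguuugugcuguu
miR-98: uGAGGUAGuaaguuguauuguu
All 9 were 22 bases long and carried the same seed. Counts were compared between members as they stand, and whether all members were captured equally well was not tested. Of the 36 pairs of members, 4 differed at 1 base, 10 at 2 and 11 at 3 bases. let-7a was 1 base away from 3 other members, while let-7d, let-7g, let-7i and miR-98 had no neighbour closer than 2 bases. let-7d was the one member that started with A.

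The 9 mature miRNAs came from 12 hairpins on 7 chromosomes, since let-7a, let-7c and let-7f each have a pair of copies that give the same mature sequence. The coordinates are those of GRCm38.p6, with the gene annotation of GENCODE vM21. On chromosome 13, Mirlet7d (48536012 to 48536114), Mirlet7f-1 (48537829 to 48537917) and Mirlet7a-1 (48538179 to 48538272) lay on the minus strand in an exon of the lincRNA 6720427I07Rik. Mirlet7c-2 (85706603 to 85706697) and Mirlet7b (85707319 to 85707403) lay 621 bases apart on chromosome 15, in exons of the noncoding gene Lncppara. Mirlet7f-2 (151912346 to 151912428) and Mir98 (151913214 to 151913321) lay 785 bases apart on chromosome X in an intron of Huwe1, a ubiquitin ligase gene. Mirlet7c-1 (chromosome 16, 77599657 to 77599750) was intronic in Mir99ahg, 656 bases from Mir99a, and Mirlet7e (chromosome 17, 17830352 to 17830444) was intronic in Spaca6, 367 bases from Mir125a. Mirlet7a-2 (chromosome 9, 41536716 to 41536811) lay in introns of 2 noncoding genes with Mir100 and Mir125b-1 as neighbours, and Mirlet7g (chromosome 9, 106178840 to 106178927) in an intron of Wdr82. Mirlet7i (chromosome 10, 122985640 to 122985724) lay on the minus strand in an exon of a transcribed pseudogene, D630033A02Rik. The hairpins on the other chromosomes lay on the plus strand.

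The libraries held between 937002 and 5110007 counts of tags placed on mature miRNAs, the Thy1+ libraries being the smallest, and 510 to 543 names had a count in each. No pair of libraries held identical values. Sums of marker miRNAs are given in counts per 1000000 miRNA counts of a library (CPM). White blood cell markers (5 of 5 in the files) summed to 14900 and 26540 in Thy1+, 2017 and 1346 in Thy1-, and 936.6 in the culture. Most of this sum was miR-142-3p. miR-155 was not lowest in the culture, with 474 counts there against 25 and 33 in Thy1- and 124 and 143 in the smaller Thy1+ libraries. Markers of gonadal somatic cells (2 of 2) summed to 1138 and 2205 in Thy1+, 18580 and 3712 in Thy1-, and 172.6 in the culture. Markers of meiotic and later germ cells (3 of 3) ran from 23730 to 106800 in Thy1+ and from 8581 to 49490 in Thy1-, with 196200 in the culture. Nearly all of this sum was miR-34c, with 999172 counts in the culture, where miR-34b-5p had 3330. miR-449a was not highest there, with 201 counts against 655 and 144 in Thy1+ and 828 and 51 in Thy1-. Markers of early germ and pluripotent cells (6 of 6) were 6303 and 13370 against 1029 and 602.5, with 736.8 in the culture. Mesenchymal markers (5 of 5) were 23010 and 29910, then 39630 and 22760, and 52880 in the culture. Relative to library totals, miR-145 was lowest in the culture, with 1197 counts against 293 and 294 in the smaller Thy1+ libraries and 2114 and 1584 in Thy1-. miR-199a-5p was not highest there either, with 12461 counts against 12930 in the smaller library of Thy1- replicate 2. Red blood cell markers (3 of 3) were 251.9 and 179.4 in Thy1+, 1344 and 1475 in Thy1-, and 12.52 in the culture, so that they were lower in Thy1+ than in Thy1-, as the family was. Endothelial markers (2 of 2) were 1918 and 2605, then 964.2 and 1678, and 562.2 in the culture, and no marker of these lists was at 0 in any library. The mesenchymal sums and those of meiotic and later germ cells overlapped between Thy1+ and Thy1-, while the other sums separated these groups. The part of these levels in the results below was not tested.

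Near-identical sequences raise the question of how far the members can be counted apart, and tags were scored by their best placement. The following lines show the 4 single-base differences, with the base that differs in capitals. The first 3 are compared with let-7a and the last with let-7c.
let-7c: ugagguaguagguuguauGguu
let-7e: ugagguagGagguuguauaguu
let-7f: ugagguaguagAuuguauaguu
let-7b: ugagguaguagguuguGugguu
In full-length tags, a base that belongs to neither member of such a pair was taken as a rough measure of misreading at that position. It does not measure how often the base of 1 member is misread as that of the other. Such a base can also be that of another member, as U at base 12 is in let-7g. At base 19, where let-7a and let-7c differ (A19G, positions counted from the 5′ end), tags with neither base were 0.0526% to 0.141% of the 22-base tags. At base 12, between let-7a and let-7f (G12A), they were 0.0722% to 0.251%. The less abundant member of each pair outnumbered the commoner of the 2 foreign bases by at least 196-fold between let-7a and let-7f and 327-fold between let-7a and let-7c. The narrowest margin was that of let-7e beside let-7a (U9G), where 1140 tags with the base of let-7e stood against 30 with the commoner foreign base in Thy1+ replicate 1, a ratio of 38.0.

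Most member counts came from exact tags. Tags without a mismatch made up 95.4% and 95.7% of the family's counts in Thy1+, 94.2% and 96.2% in Thy1-, and 96.3% in the culture. Tags with 1 mismatch made up between 3.49% and 5.44%. The share of 1-mismatch tags was higher in let-7i, at 13.2% to 19.2%, and miR-98, at 11.5% to 15.8%, than in let-7f, at 2.36% to 4.39%.

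Tags that fitted several members equally well, which were split evenly between them, were 1.49% and 1.06% of the family's counts in Thy1+, 1.91% and 1.81% in Thy1-, and 0.597% in the culture. None was tied with a miRNA outside the family. The pair of let-7a and let-7c held 64.8% of all tied counts. Most of these were an 18-base tag that stops just before the base at which both differ, shown here as the main source of the ties.
tag shared by let-7a and let-7c: tgaggtagtaggttgtat
It had 1752 and 976 counts in Thy1+, 8924 and 25231 in Thy1-, and 2128 in the culture. By member, tied tags were 0.816% to 4.37% of let-7a, 0.711% to 2.41% of let-7c, 0.199% to 0.349% of let-7f and 4.0% to 10.6% of miR-98, the scarcest member. Tags with an unread base were 1.09% to 1.19% of the family's counts in 4 libraries and 2.92% in Thy1- replicate 1, where a let-7a or let-7c tag unread at base 19 alone had 2936 counts. An unread base was not scored as a mismatch in most of them.

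The family made up a smaller part of the miRNA counts in Thy1+ than in Thy1- cells, with the culture between them. It held 21.1% of the counts in Thy1+ replicate 1 (95% exact binomial interval 20.97% to 21.13%) and 21.6% in replicate 2 (21.51% to 21.68%). In Thy1- it held 42.8% (42.74% to 42.86%) and 46.2% (46.18% to 46.27%). The culture had 32.5% (32.45% to 32.53%). These intervals cover counting error only. The groups did not overlap, with means of 21.3% ± 0.389 in Thy1+ and 44.5% ± 2.43 in Thy1- (SD, n = 2 each). The difference of -23.19 percentage points had p = 0.33 in a two-sided exact permutation test, the smallest value that 2 against 2 libraries allow. In bulk samples, fewer cells that carry the family and less of it per cell cannot be told apart.

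let-7c, let-7a and let-7f were the main members everywhere, together 80.0% to 86.4% of the family in each library. let-7c had 81792 and 92868 CPM in the Thy1+ libraries, 142166 and 185777 CPM in the Thy1- libraries and 70086 CPM in the culture. It was the most abundant of all miRNAs in 3 of the 4 fresh libraries, the second in Thy1+ replicate 1 and the fifth in the culture. let-7a had 48714 and 45146 CPM in the Thy1+ libraries, 81287 and 105800 CPM in the Thy1- libraries and 86985 CPM in the culture. let-7f had 43000 and 42916 CPM in the Thy1+ libraries, 122582 and 78438 CPM in the Thy1- libraries and 123548 CPM in the culture. Both were lowest in Thy1+, and in the culture let-7f was the most abundant member, just above its higher Thy1- library.

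let-7b, which differs from let-7c by 1 base, was the fourth most abundant member in every library. It had 20171 and 17494 CPM in the Thy1+ libraries, 35488 and 54255 CPM in the Thy1- libraries and 12355 CPM in the culture. The culture was below every fresh library for let-7b and let-7c and for no other member. let-7e had 2828 and 3100 CPM in the Thy1+ libraries, 7455 and 8109 CPM in the Thy1- libraries and 7074 CPM in the culture. let-7i had 2050 and 2567 CPM in the Thy1+ libraries, 6457 and 4328 CPM in the Thy1- libraries and 5380 CPM in the culture. For these last 2 the culture stood among or just below the Thy1- libraries and well above both Thy1+ libraries. let-7d ran from 3276 to 8950 CPM and let-7g from 8263 to 25657 CPM over the 5 libraries. miR-98 was the rarest member, with 395 and 333 CPM in the Thy1+ libraries, 974 and 999 CPM in the Thy1- libraries and 973 CPM in the culture. For each of the 9 members both Thy1+ libraries were below both Thy1- libraries. How many of all names separated in the same way was not counted, so this is not shown to be particular to the family.

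**Figure D1:**
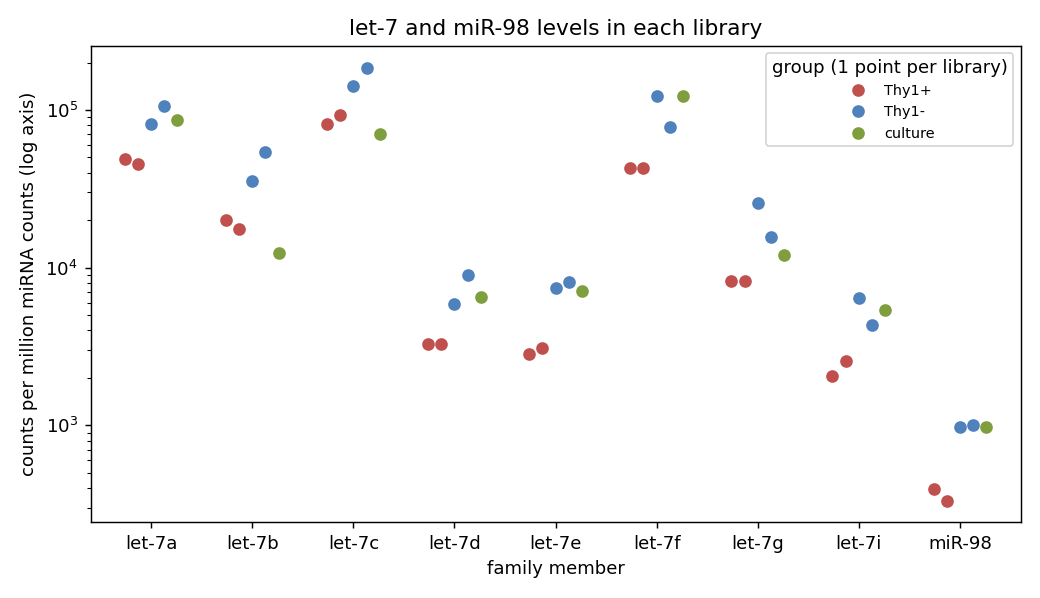
Levels of the 9 members in counts per 1000000 miRNA counts (CPM), on a log axis, with 1 point per library. Both Thy1+ points lie below both Thy1- points for every member, and the culture point lies below all 4 fresh points for let-7b, at 12355 CPM, and let-7c, at 70086 CPM.

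From the most to the least abundant, the order was let-7c, let-7a, let-7f, let-7b, let-7g, let-7d, let-7e, let-7i and miR-98 in both Thy1+ libraries and in Thy1- replicate 2. In Thy1- replicate 1 let-7f stood above let-7a, and let-7e and let-7i above let-7d. In the culture let-7f came first, then let-7a and let-7c, and let-7e stood above let-7d. Some neighbours did not differ beyond their spread, such as let-7a, at 93543 ± 17330 CPM, and let-7f, at 100510 ± 31210 CPM, in Thy1- (SD, n = 2). let-7d, at 7424 ± 2157 CPM, and let-7e, at 7782 ± 463 CPM, were likewise close there.

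As a share of the family, let-7c made up 40.9% ± 2.93 in Thy1+ and 36.7% ± 4.93 in Thy1- (SD, n = 2), against 21.6% (21.51% to 21.63%) in the culture. let-7b made up 8.84% ± 1.05 and 10.0% ± 2.44 in the fresh groups and 3.80% in the culture. Both together made up 41.5% to 51.9% in the fresh libraries and 25.4% in the culture, below that range. let-7f took 20.2% ± 0.393 in Thy1+ and 22.8% ± 8.26 in Thy1-, and 38.0% (37.95% to 38.1%) in the culture. let-7a took 22.02% ± 1.58, 20.9% ± 2.75 and 26.8%. The ratio of let-7f to let-7c counts was 0.526 and 0.462 in Thy1+, 0.862 and 0.422 in Thy1-, and 1.76 in the culture, where let-7f outnumbered let-7c. The ratio of let-7a to let-7c was 0.486 to 0.596 in the fresh libraries and 1.24 in the culture.

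The 2 Thy1- libraries differed from each other in composition. let-7f was 28.6% of the family in Thy1- replicate 1 and 17.0% in replicate 2, and let-7g 6.00% and 3.38%, both higher in replicate 1. let-7c was 33.2% and 40.2%, let-7b 8.29% and 11.7%, both higher in replicate 2. The 2 Thy1+ libraries lay closer together for let-7f, at 20.4% and 19.9%, and for let-7g, at 3.94% and 3.83%. The 5 scarcer members, let-7d, let-7e, let-7g, let-7i and miR-98, together made up 8.0% to 10.9% in each library.

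**Figure D2:**
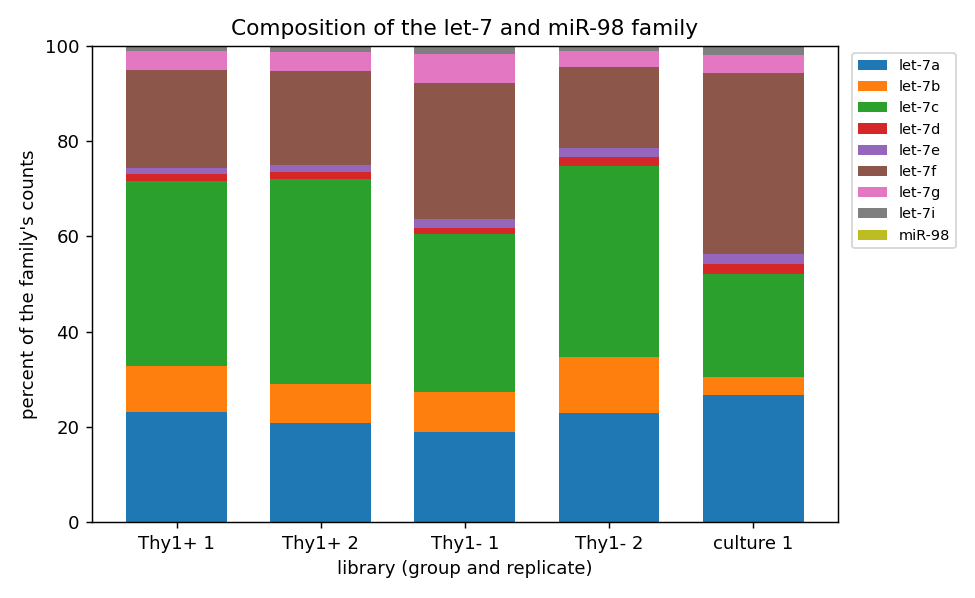
Stacked bars of the percent of the family's counts taken by each member, 1 bar per library. let-7c, at 33.2% to 43.0%, is the largest band in the fresh libraries, and let-7f, at 38.0%, is the largest in the culture.

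Relative to the bulk of miRNAs, the family was lower in Thy1+ than in Thy1- cells, a comparison that separates the stem cell enriched fraction from the cells left behind. Of the 9 members, 7 were lower in Thy1+ by edgeR's quasi-likelihood test at a Benjamini-Hochberg adjusted p of 0.05, and none was higher. Among all 425 names tested, 7.76% were called lower and 20.5% higher. let-7e fell by 1.96 log2 units (SE 0.458, edgeR adjusted p = 0.0237) and miR-98 fell by 1.99 (SE 0.505, edgeR adjusted p = 0.0281). let-7i, let-7g, let-7f, let-7d and let-7b fell by 1.77, 1.84, 1.75, 1.76 and 1.83 on the same scale, with edgeR adjusted p-values from 0.0278 to 0.0408. let-7a, at -1.57 (SE 0.511), and let-7c, at -1.49 (SE 0.509), the most abundant members, missed the threshold with edgeR adjusted p-values of 0.0539 and 0.0595. The median of the members was -1.77 and that of all names tested was -0.07.

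The direction held under every scaling tried while the number of calls did not. Scaling to total counts moved the median of all names by 0.58, which brought the members to between -0.91 and -1.44, and only let-7e remained past the threshold in edgeR, with 2.59% of all names called lower. DESeq2, which called 13.5% of the names it tested lower, and edgeR with relative log expression scaling, which called 8.94% lower, each called all 9 members lower. Without replicate 1 or without replicate 2 of Thy1+ edgeR called 0 of the 9 at an adjusted p of 0.05, with 2 and 1 of them at an unadjusted p under 0.05, and 0 of all names tested. In such a fit the lone library of a group is assumed to vary like the other group. The share of all names at an unadjusted p under 0.05 was not counted, here or below, so such counts of members have no background beside them. Without Thy1- replicate 1 it called 9 members lower, beside 9.40% of all names, and without Thy1- replicate 2 it called 8, beside 9.88%.

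The culture, compared with the fresh Thy1+ libraries, had higher levels of most members relative to the bulk of miRNAs. With 1 culture library, the spread in this test came from the fresh libraries, and the culture is assumed to vary as they do. edgeR called 7 of the 9 members higher and 0 lower, against 8.94% higher and 13.4% lower among the 470 names tested. let-7f had the largest difference, 3.17 log2 units (SE 0.515, edgeR adjusted p = 0.0105). miR-98 followed with 3.06 (SE 0.602, edgeR adjusted p = 0.0114), then let-7e with 2.91, let-7i with 2.89, let-7d with 2.64, let-7a with 2.54 and let-7g with 2.19, whose edgeR adjusted p-values ran from 0.0105 to 0.0250. The pair that missed the threshold was let-7c, at 1.34 (SE 0.530, edgeR adjusted p = 0.0953), and let-7b, at 1.03 (SE 0.592, edgeR adjusted p = 0.230). DESeq2 also called 7 higher, with 10.8% of all names called higher.

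These differences depended on the scaling. The TMM factor, which rescales a library to the bulk of its miRNAs, was 0.472 in the culture and 0.88 to 1.63 in the fresh libraries, and scaling to total counts moved the median of all names by -1.64. Under it let-7f alone was called higher, at 1.52, with 1.91% of all names called higher, and let-7b and let-7c turned to -0.61 and -0.32. Without Thy1+ replicate 1 or without Thy1+ replicate 2 edgeR called 0 members, with 5 and 3 at an unadjusted p under 0.05, as it called 0 of all names. let-7f had the highest value of the 9 members and let-7b the lowest under both scalings. A change of scaling moves all members by nearly the same amount, so it could hardly alter this order.

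Against the Thy1- cells, no member of the culture passed the test in edgeR, where 1 member, let-7f, had an unadjusted p under 0.05, and DESeq2 called 0 as well. The same test called 18.1% of all 470 names higher and 16.8% lower. let-7f had a log2 difference of 1.37 (SE 0.511, edgeR adjusted p = 0.0662), let-7a of 0.92 (SE 0.548), let-7c of -0.21 (SE 0.554) and let-7b of -0.85 (SE 0.633). With total scaling, which moved the median of all names by -1.04, 8 of the 9 lay below 0 and let-7b, at -1.86, was called lower by edgeR, as were 25.7% of all names. Whether the family as a whole stood above or below Thy1- thus turned with the scaling. let-7b was the lowest member under both, an order that a change of scaling leaves nearly as it is.

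**Figure D3:**
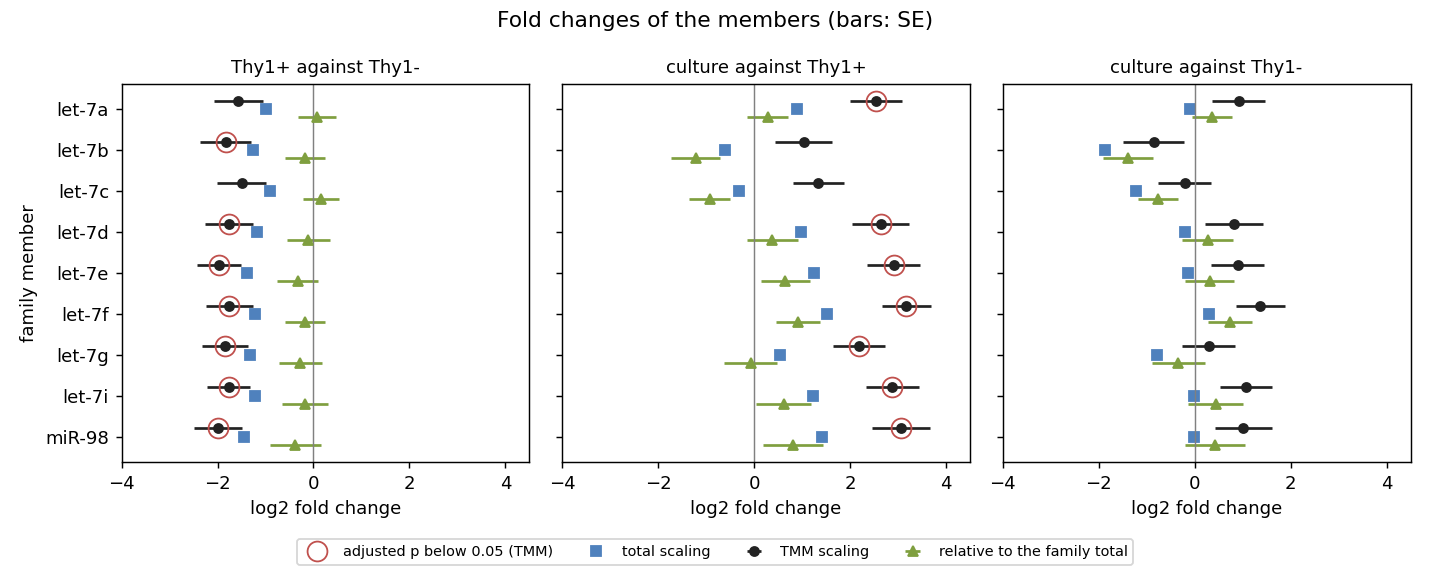
Log2 fold changes of the 9 members in the 3 comparisons under TMM scaling (black, SE as bars, ringed where the edgeR adjusted p is below 0.05), total scaling (blue squares) and relative to the family total (green triangles, SE as bars). All values against Thy1- in the left panel lie below 0 under TMM and total scaling. In the other panels total scaling moves points to the left, across 0 for let-7b and let-7c in culture against Thy1+ and for 6 members in culture against Thy1-.

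Setting the counts against the family's own total asks which members changed their place in the family, whatever the scaling. Since the members make up that total, their values are held around 0 as a set. The test also draws on the spread of all names, so a lack of calls does not show a stable composition. Between Thy1+ and Thy1- the 9 members lay between -0.38 and 0.16 on the log2 scale and edgeR called 0, with 0 at an unadjusted p under 0.05. Across all names, 43.5% were called higher and 0.471% lower on this scale. In culture against Thy1+ edgeR again called 0 of the 9, with 1 at an unadjusted p under 0.05. let-7b had -1.22 (SE 0.514, edgeR adjusted p = 0.0739), let-7c -0.92 (SE 0.426, edgeR adjusted p = 0.0937) and let-7f 0.92 (SE 0.459, edgeR adjusted p = 0.115). The other 6 lay between -0.07 and 0.81, and 1.06% of all names were called higher and 49.1% lower. Culture against Thy1- gave -1.40 for let-7b (SE 0.519, edgeR adjusted p = 0.0777), -0.77 for let-7c and 0.74 for let-7f, with 0 called, 1 at an unadjusted p under 0.05, and 10.2% of all names called higher and 19.1% lower. The lower shares of let-7b and let-7c and the higher share of let-7f in the single culture library thus did not pass this test. DESeq2 was not run on this scale.

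The members also differed in how closely they followed the family as a whole. Over the 5 libraries, let-7a had the smallest root mean square distance to the summed family, 0.165 on the log2 scale of CPM centred on each mean. let-7d (0.209), let-7e (0.245) and let-7g (0.288) followed, while let-7b (0.551), let-7f (0.420) and let-7c (0.358) lay farthest. Among the 224 other miRNAs with a mean of at least 100 CPM, the nearest to the family was miR-148b (0.251), with 1742 and 1678 CPM in the Thy1+ libraries, 2792 and 2614 CPM in the Thy1- libraries and 1714 CPM in the culture. miR-152 (0.271), miR-374 (0.298), miR-151-5p (0.324) and miR-214* (0.337) came next. Of these 5, edgeR called none in Thy1+ against Thy1-, and miR-152, at 2.48 (SE 0.569, adjusted p = 0.0212), and miR-374, at 1.98 (SE 0.594, adjusted p = 0.0434), higher in culture against Thy1+, beside 8.94% of all names.

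The other arms of the let-7 hairpins, marked with an asterisk, are mostly degraded after the mature strand is loaded into Argonaute. They were rare in all libraries. Of 9 such names, 8 had counts, let-7e* was not seen, and let-7a* and let-7c-2* shared all their tags and count as 1 measurement, which leaves 7. Together they were 0.0725% and 0.0674% of the counts of both arms in Thy1+, 0.0608% and 0.0521% in Thy1-, and 0.0359% in the culture. In Thy1+ against Thy1-, edgeR called 4 of the 7 lower, beside 7.76% of all names, and DESeq2 called 2 of them, let-7c-1* and let-7g*, beside 13.5%. With total scaling only let-7f* passed the edgeR threshold, beside 2.59% of all names, and let-7g*, let-7i* and let-7c-1* had edgeR adjusted p-values of 0.104, 0.158 and 0.193. With tags of at least 20 bases edgeR called 0 of the 7 lower, beside 4.18% of all names called lower. In that fit 5 of the 7 had an unadjusted p under 0.05, a share that was not counted over all names. let-7g* had 3 and 4 counts in Thy1+ and 62 and 35 in Thy1-, a log2 difference of -2.54 (SE 0.755, edgeR adjusted p = 0.0437). let-7f* had 2 and 1 counts against 16 and 55, at -3.02 (SE 0.823, edgeR adjusted p = 0.0336), let-7i* 6 and 9 counts against 68 and 67, at -1.86, and let-7c-1* 11 and 20 against 91 and 166, at -1.66. Counts this low make the folds imprecise. The groups did not overlap for these 4 arms, but the arms were picked by the edgeR test, so this adds no support. How many of all names separated in the same way was not counted.

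let-7c-1* comes from the hairpin in Mir99ahg, 1 of the 2 that give let-7c. It had 12 counts in the culture, or 2.35 CPM, against 11.7 and 21.1 CPM in the Thy1+ libraries and 35.7 and 33.8 CPM in the Thy1- libraries, and was lower in culture than in Thy1- by 2.83 on the log2 scale (edgeR adjusted p = 0.0196). Against Thy1+ its value was -1.12 with TMM scaling, where it was not called, and -2.78 with total scaling, where it was called lower by edgeR. Its neighbour miR-99a had 4954 and 2511 CPM in the Thy1+ libraries, 5335 and 6988 CPM in the Thy1- libraries and 961 CPM in the culture, where it too was the lowest value. Relative to the family total, edgeR called both lower in culture than in Thy1+, let-7c-1* with -3.39 (adjusted p = 0.0123) and miR-99a with -2.57 (adjusted p = 0.0217), where 49.1% of all names were called lower. Against Thy1- the values on this scale were -3.42 (edgeR adjusted p = 0.0192) and -2.22 (edgeR adjusted p = 0.0462), beside 19.1% of all names called lower. With TMM scaling miR-99a was called in neither comparison, at -0.35 against Thy1+ (edgeR adjusted p = 0.745) and -1.66 against Thy1- (edgeR adjusted p = 0.118). let-7c itself was not called in either comparison, as given above.

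The other miRNAs made from let-7 neighbourhoods, of the miR-99/100 and miR-125 families, did not follow 1 pattern. Of the 5 partners, edgeR called 0 in Thy1+ against Thy1-, with 2 at an unadjusted p under 0.05, beside 7.76% of all names called lower and 20.5% higher. DESeq2 called 2 of them lower, beside 13.5% of all names. In culture against Thy1- edgeR called 0 partners, with 1 at an unadjusted p under 0.05, beside 16.8% of all names called lower and 18.1% higher, and DESeq2 called 0. let-7c-1* was the 1 minor arm called there by either tool, and DESeq2 called 16.2% of all names lower. miR-125b-5p, made from hairpins near those of let-7a-2 and let-7c-1, was the 1 partner called in culture against Thy1+, higher by 2.65 (SE 0.641, edgeR adjusted p = 0.0240), beside 8.94% of all names called higher. It had 4116 and 3245 CPM in the Thy1+ libraries, 3634 and 6506 CPM in the Thy1- libraries and 7441 CPM in the culture, the highest of the 5 libraries. miR-99b and miR-125a-5p, the partners of let-7e, had 12850 and 2204 CPM in the culture, within or near their Thy1+ ranges of 10710 to 23520 and 2139 to 5347 CPM. let-7e, in contrast, was above both Thy1+ libraries in the culture. let-7i* was called higher with its mature strand in culture against Thy1+, at 2.44 (edgeR adjusted p = 0.0314). With total scaling neither miR-125b-5p, at 1.02, nor let-7i*, at 0.78, passed the edgeR threshold, and DESeq2 did not call let-7i*.

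miR-202-3p, a gonadal miRNA made on chromosome 7, is shown because its seed differs from that of let-7 at 1 base, G8U, with the seed in capitals.
miR-202-3p: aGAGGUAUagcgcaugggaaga
It had 257 and 235 CPM in the Thy1+ libraries, 1419 and 473 CPM in the Thy1- libraries and 31.7 CPM in the culture. It was lower in Thy1+ than in Thy1- by 2.42 log2 units (SE 0.611, edgeR adjusted p = 0.0278), as let-7 members were. In the culture it was lower than in Thy1- by 3.78 (SE 0.893, edgeR adjusted p = 0.0139), where no let-7 member passed the test. With total scaling the Thy1+ against Thy1- value was -1.94, and its edgeR adjusted p of 0.0624 missed the threshold. It is also one of the gonadal somatic cell markers used above. miR-196a and miR-196b carry the seed AGGUAGU, whose first 6 bases are the last 6 of the let-7 seed. miR-196a had 3005 and 2191 CPM in the Thy1+ libraries, 5152 and 15130 CPM in the Thy1- libraries and 974 CPM in the culture, and fell by 2.57 log2 units from Thy1- to Thy1+ (edgeR adjusted p = 0.0326). In culture against Thy1- its value was -2.41, which edgeR did not call (adjusted p = 0.0651) and DESeq2 did (adjusted p = 0.0143). miR-196b had 137 and 247 CPM in the Thy1+ libraries, 152 and 295 CPM in the Thy1- libraries, which overlapped, and 17.8 CPM in the culture. It was lower in culture than in Thy1- by 2.66 log2 units (edgeR adjusted p = 0.0421) and was not called in Thy1+ against Thy1-, at -0.86 (edgeR adjusted p = 0.320). In culture against Thy1+ edgeR called neither of the pair, with adjusted p-values of 0.867 for miR-196a and 0.150 for miR-196b.

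The ends of the tags gave a further view of the members. Tags that started at base 1 were 98.2% and 98.3% of the family's counts in Thy1+, 98.3% and 97.2% in Thy1-, and 96.8% in the culture. Tags of all 22 bases were 70.3%, 70.6%, 64.6% and 67.3% of the family's counts in the fresh libraries in that order and 74.3% in the culture. Tags of 20 bases were 9.0%, 8.28%, 12.1% and 11.1%, and 3.75% in the culture, the lowest of the 5. No placement in the files ran before the first or past the last base of the mature miRNA, so longer forms were not seen here.

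let-7i and miR-98 stood apart in that their commonest tag was a base short, and these tags are shown for that reason.
let-7i of 21 bases: tgaggtagtagtttgtgctgt
miR-98 of 21 bases: tgaggtagtaagttgtattgt
let-7i of 21 bases with A: tgaggtagtagtttgtgctgtA
The 21-base tag of let-7i had 854 and 1048 counts in Thy1+, 7404 and 7997 in Thy1-, and 11277 in the culture, against 207 and 454, 2357 and 2699, and 3256 for the full 22 bases. That of miR-98 had 180 and 121, 1259 and 1913, and 2325 counts, against 30 and 63, 388 and 690, and 786. In both members and in all 5 libraries the shorter tag was the commoner. The third tag is that of let-7i with a final A, in capitals, in place of the last U. It had 196 and 190 counts in Thy1+, 846 and 1184 in Thy1-, and 3502 in the culture.

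Tags that matched a member up to a last base A that it lacks were 0.952% to 1.39% of the family's counts. In let-7i they were 14.5% (12.9% to 16.1%, exact 95% interval) and 10.4% (9.18% to 11.6%) in Thy1+, 7.68% (7.28% to 8.10%) and 8.67% (8.29% to 9.05%) in Thy1-, and 15.8% (15.4% to 16.2%) in the culture. In miR-98 they were 5.13% and 2.85%, 2.26% and 2.79%, and 7.36% in the culture. The Thy1- libraries were lowest for let-7i, and the culture was highest for both. Over the other 7 members the share never exceeded 3.27%. No placement ran past the last mature base, so an A added to a full-length tag could not be seen. Only shorter tags could show one. Exact tags a base short were 38.0% to 46.3% of let-7i and 38.3% to 52.3% of miR-98. In let-7e, the highest of the other 7, they were 25.3% to 28.0%. The part of this limit in the contrast between members was not tested.

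Tags that lack bases 1 to 7, and with them most of the seed, took a larger share in the culture than in any fresh library. Tags starting at base 8 or later were 0.296% and 0.216% of the family's counts in Thy1+, 0.452% and 0.248% in Thy1-, and 1.38% (1.37% to 1.40%) in the culture. Among all other miRNA names these shares ran from 0.0834% to 0.138%, and the culture, at 0.0981%, lay within that range. In let-7i they made up 2.24% and 1.85% of the counts in Thy1+, 2.28% and 2.25% in Thy1-, and 13.1% (12.7% to 13.5%) in the culture. miR-98 went from 1.08% to 1.90% in the fresh libraries to 7.57% (6.84% to 8.34%), and let-7g from 0.907% to 1.97% to 4.57% (4.41% to 4.74%). let-7c, at 0.0900% to 0.156% in the fresh libraries and 0.315% in the culture, had few. The culture was the highest of the 5 libraries for each of these members, and no test was made with its single library.

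The commonest such tags are shown, with 15 bases from base 8 to the end of the mature sequence, the shortest length in the files.
let-7a from base 8: gtaggttgtatagtt
let-7f from base 8: gtagattgtatagtt
The let-7a tag had 192 and 125 counts in Thy1+, 1062 and 1660 in Thy1-, and 7031 in the culture. The let-7f tag had 101 and 81 counts in Thy1+, 1181 and 1074 in Thy1-, and 7076 in the culture. Tags of 15 bases in all were 0.334%, 0.240%, 0.494% and 0.310% of the family's counts in the fresh libraries and 1.42% in the culture. These tags were counted for their members above. Restricting the counts to tags of at least 20 bases moved no member's share of the family, as a group mean, by more than 0.85 percentage points. For scarce members this bound is wide beside the share itself. Tags under 20 bases were 11.4% to 23.7% of the counts of let-7i and 14.4% to 28.8% of those of miR-98.

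**Figure D4:**
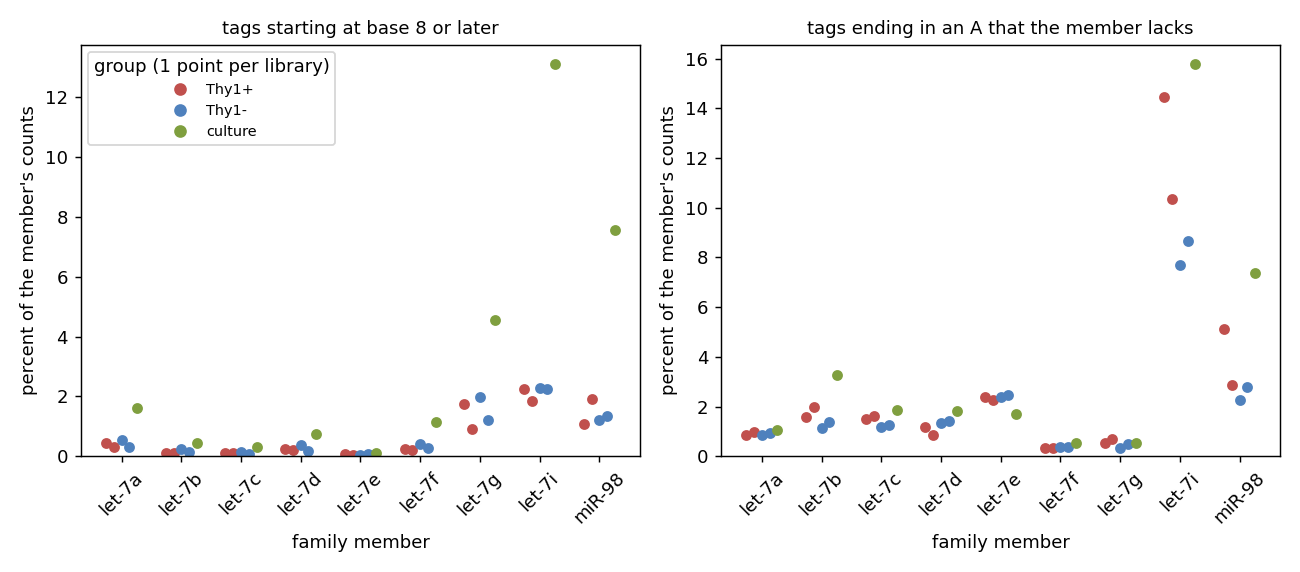
Percent of each member's counts in tags that start at base 8 or later (left) and in tags that end in an A the member lacks (right), 1 point per library. The culture stands at 13.1% for let-7i and 7.57% for miR-98 on the left, where the fresh libraries lie at or below 2.28%, and let-7i is the highest member in every library on the right.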

How the data were processed

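The 5 small RNA libraries of mouse testis cells were prepared with Trizol and the Illumina small RNA protocols, per the labels. The deposited files list raw counts of each distinct sequence tag with its placements on mature mouse miRNAs of miRBase 12.0, per the file names, and with the start, end, mismatches (0 to 2) and number of placements, per the file headers. The values were not normalized. DESeq is named in the submitters' processing notes, with neither its version nor its use. How adapters were removed, which aligner was used and on which genome build were not given in the sources used here. The files hold only tags placed on miRNAs, so totals are miRNA counts and not sequencing depths.

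Each tag was assigned to its best placement, a tag tied between names (up to 8) was divided evenly among them, and each name's sum was rounded to whole counts. Names were tested on the whole table with edgeR 4.0.16 in R 4.3.3 (quasi-likelihood fit, TMM, filterByExpr, two-sided, Benjamini-Hochberg over all names tested, threshold 0.05), with the 4 fresh libraries for Thy1+ against Thy1- and all 5 for the culture. A second fit used the summed count of the 9 members as library size. DESeq2 1.42.0, other scalings, tag filters and leaving out libraries were alternatives. Intervals are exact Clopper-Pearson from SciPy 1.17.1 (Python 3.11.15) and cover counting error only, since no molecular identifiers are named and reads are not independent molecules. The edgeR step was also run on simulated counts with known changes in both directions, as a check of the code. Such counts do not test which scaling suits these data.

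All 9 members were named. Of the list of minor arms and cluster partners, those that passed a test and the 4 most abundant were named, and of other miRNAs the 5 nearest to the summed family by log2(CPM + 1) over the libraries. The miRNAs with similar seeds, the tags printed and the remaining partners were named after their values were seen. Members, lists and tests were chosen with earlier results of these data known.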

Additional observations from a re-analysis of the deposited data

How the results depend on the processing

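The number of members lower in Thy1+ than in Thy1-, 7 as reported, became 1 with total scaling, 4 with tags of at least 20 bases, and 0 to 9 when a library was left out. The number higher in culture than in Thy1+, 7 as reported, became 1 with total scaling and 0 to 8 when a library was left out, and total scaling called 1 lower in culture than in Thy1-, against 0. With tags of at least 20 bases, 4.18% of all names were called lower in Thy1+ than in Thy1-. The fit that called 8 members higher in culture, without Thy1- replicate 2, called 11.8% of all names higher. Without Thy1- replicate 1 that share was 5.38%. The smaller fits have fewer samples. The cause of the other moves was not tested. The family's share of the counts, 21.3% in Thy1+ and 32.5% in the culture, was 22.13% and 32.95% with exact tags, 22.5% and 33.89% without tied tags, and 32.35% in the culture with tags of at least 20 bases.

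With the replicate number as a block, edgeR called 0 members in Thy1+ against Thy1- (0.941% of all names lower), with adjusted p-values of 0.0634 to 0.0927 and all 9 at an unadjusted p under 0.05. The labels do not say that the numbers pair libraries, and the deviations of same-numbered libraries had r = -0.0614 across 425 names, which are not independent replicates.

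Total scaling reversed let-7b (-0.61) and let-7c (-0.32) in culture against Thy1+, and let-7a (-0.10), let-7d (-0.19), let-7e (-0.14), let-7g (-0.78), let-7i (-0.0034) and miR-98 (-0.021) in culture against Thy1-. None of these was called. When a library was left out, let-7c in culture against Thy1- ran from -0.70 to 0.18. Relative to the family total, Thy1+ against Thy1- ran from -0.056 to 0.21 for let-7a, -0.41 to 0.093 for let-7b, -0.33 to 0.16 for let-7d, -0.51 to 0.25 for let-7f, -0.63 to 0.20 for let-7g and -0.48 to 0.21 for let-7i, and culture against Thy1- from -0.70 to 0.13 for let-7g. Of the members' log2 fold changes under all alternatives, 421 kept direction and side of the threshold, 52 lost it, 14 gained it and 17 reversed. Under the tag filters and tie rules, 36 group values of the members' shares moved beyond the SD between libraries or, for the culture, beyond its counting interval. Depth limits the minor arms, with fewer than 20 counts in several libraries, more than the members.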
